A study of Mus musculus with 2 samples.

Results

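The genes described here are the antisense and divergent long non-coding RNA (lncRNA) genes of the mouse annotation that held reads in neonatal calf muscle. Their gene type in GENCODE M21 is antisense (in most cases lying over a protein-coding gene on the opposite strand) or bidirectional_promoter_lncRNA. The latter mostly start beside a coding gene and run away from it. Genes of both types were chosen by their own counts. A gene entered with at least 10 counts summed over the libraries, and 116 of the 3149 annotated genes of these types did so. Of these, 100 were antisense genes, 3.38% of the 2959 annotated, and 16 were bidirectional promoter genes, 8.42% of the 190 annotated. Each was paired with the protein-coding gene that it overlaps most on the opposite strand or, without overlap, with the nearest one, which gave 116 distinct paired genes. The tissue was gastrocnemius from male B6CASTF1/J mice, a first-generation cross of 2 inbred strains, aged 4 days and with no treatment named in the labels. The series has this 1 group, with 1 long-read library for each of 2 biological replicates made from 2 µg of total RNA. Their labels give separate biosamples and 1 shared donor entry, so whether they are 2 mice is not settled, and the spread between them may be technical.

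Antisense lncRNAs are transcribed across a coding gene in the reverse direction. Some, such as Airn and Kcnq1ot1 at imprinted loci, silence neighbouring genes on the same chromosome, and most have no assigned function. Divergent lncRNAs start from the same promoter region as a coding gene, usually a CpG island, and run the other way. Their levels in a tissue are commonly low, so that the depth of a library sets how many of them are seen.

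The libraries held 998659 (replicate 1) and 1026257 (replicate 2) counts on annotated mouse genes. A count is 1 read assigned to a transcript model, and CPM values scale a gene's counts by these totals. A long read stands for 1 cDNA, so levels were not scaled by gene length. All 7 skeletal muscle markers were counted in both libraries, at 151397 and 150347 CPM in sum. The libraries also differed in other tissues' markers: the 10 epidermal and hair markers summed to 4 and 1285 counts, and the 5 Schwann cell markers to 1449 and 3479 CPM. The 5 fibroblast markers summed to 36798 and 24766 CPM and the 3 adipocyte markers to 125 and 294 CPM. Their part in the values below was not tested. In bulk tissue, fewer cells of a type and less RNA per cell cannot be told apart.

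The promoter stretches of 5 divergent genes show how closely such a pair starts. Positions are on mm10, and the bases come from the RefSeq promoter table of GRCm38.p6, read 5′ to 3′ on the lncRNA's strand. Capitals mark bases between the annotated starts of the coding gene and the lncRNA, and lower case marks the start of the lncRNA itself. Starts are those of GENCODE. At 2810013P06Rik the 300-base window reaches only part of the way to Ankrd11, so 141 capitals are printed for a gap of 189. Its RefSeq start lies 109 bases inside the lower case stretch. The first 3 followed the rule for named genes, and Gm9776 and 2810001G20Rik were added after their values were seen because their gaps were the 2 smallest.
0610009L18Rik at chr11:120348496-120348727 (plus strand), beside the cytoplasmic actin gene Actg1: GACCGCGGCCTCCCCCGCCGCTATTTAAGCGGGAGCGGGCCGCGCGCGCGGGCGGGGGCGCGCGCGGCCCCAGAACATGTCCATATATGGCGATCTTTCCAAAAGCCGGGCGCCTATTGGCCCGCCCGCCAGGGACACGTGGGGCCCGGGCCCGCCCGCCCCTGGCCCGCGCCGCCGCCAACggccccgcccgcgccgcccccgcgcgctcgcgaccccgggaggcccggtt
2810013P06Rik at chr8:123042325-123042624 (plus strand), beside the chromatin regulator gene Ankrd11: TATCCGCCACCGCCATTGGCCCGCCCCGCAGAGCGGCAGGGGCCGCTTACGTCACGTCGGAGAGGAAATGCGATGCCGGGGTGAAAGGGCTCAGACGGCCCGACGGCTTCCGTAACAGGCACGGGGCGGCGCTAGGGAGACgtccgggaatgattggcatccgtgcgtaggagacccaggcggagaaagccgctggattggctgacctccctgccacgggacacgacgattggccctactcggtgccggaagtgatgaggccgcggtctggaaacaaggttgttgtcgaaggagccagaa
4632427E13Rik at chr7:92741410-92741602 (minus strand), beside the small GTPase gene Rab30: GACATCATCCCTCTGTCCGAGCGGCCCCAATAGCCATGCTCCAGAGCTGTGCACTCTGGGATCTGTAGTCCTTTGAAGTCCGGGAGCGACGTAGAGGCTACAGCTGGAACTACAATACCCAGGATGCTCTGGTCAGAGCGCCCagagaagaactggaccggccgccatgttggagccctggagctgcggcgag
Gm9776 at chr13:94358874-94358959 (minus strand), beside the adaptor complex gene Ap3b1: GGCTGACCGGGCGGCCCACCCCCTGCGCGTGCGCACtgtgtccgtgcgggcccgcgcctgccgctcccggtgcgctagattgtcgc
2810001G20Rik at chr11:64079469-64079533 (plus strand), beside the heme A synthesis gene Cox10: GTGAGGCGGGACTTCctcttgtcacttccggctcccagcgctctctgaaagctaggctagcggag

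The starts in these pairs were 183, 189, 144, 37 and 16 bases apart, in the order printed. GC made up 79.7% of the stretch at 0610009L18Rik, which held 41 CpG dinucleotides and 5 copies of GGGCGG on either strand. The stretch at 2810013P06Rik held 4 copies of CCAAT and 2 of GGGCGG. Over the 35 members whose RefSeq start lay within 200 bases of the GENCODE start, the median 300-base window had 61.3% GC and 21 CpG, against 52.7% and 7 over all 32851 windows of the table. GGGCGG, the core of the GC box, stood on either strand in 62.9% of these windows and in 35.7% of all. CCAAT stood in 40% against 37.4%, and TATAAA in 11.4% against 13.6%. The GC and CpG values were not particular to divergent starts. The 21 windows of head to head or divergent members had medians of 61.3% GC and 17 CpG. For the 14 of inside, spanning or tail to tail members they were 61.3% and 23.5. All windows of the table were used, whether or not their genes held reads. None of the 3 motifs contains another, and a match is a description of the sequence only. Gm48226, a further divergent gene, had no entry in the table.

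The 116 members held 3471 counts, 1624 in replicate 1 and 1847 in replicate 2. This was 0.171 ± 0.0123% of annotated gene counts (mean ± SD, n = 2 libraries) and 62.8% of the 5523 counts on all genes of these types. A further 804 genes of the types held 1 to 9 counts, and 2229 held none, which allows up to 3 counts each at the 95% level. Most members were close to the minimum: the median was 16.5 counts in sum (8.11 CPM), 73 had at most 20 counts, 12 had over 50 and 3 had at least 100. Just inside the limit stood 3010003L21Rik (4 and 6 counts in replicates 1 and 2), 4930556N13Rik (3 and 7) and AC157910.6 (5 and 5). Just outside it stood 1500015A07Rik (4 and 5), 1810062O18Rik (4 and 5) and 2310068J16Rik (2 and 7). All members but Gm15541 were counted in both libraries.

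Atcayos stood far above the other members. It held 280 counts in replicate 1 and 261 in replicate 2, or 267 ± 18.4 CPM (n = 2), and lies at chr10:81194609-81210877 on the plus strand. It runs across the whole of Nmrk2, the muscle-enriched nicotinamide riboside kinase, which held 119 and 71 counts. Atcayos was above Nmrk2 in both libraries, 2.85-fold in sum. Nmrk2 itself differed between the libraries (Fisher's exact test, adjusted p = 0.00536). Atcayos overlaps 2 opposite coding genes, so the ratio depends on which of them is taken as the pair. Its leading transcript was an annotated model of 2 exons and 3057 bases with 233 and 212 counts, and 88.2% of its counts were spliced. Of its 541 counts, 23 lay on models that overlap annotated exons of Nmrk2 (4.25%).

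Ndufb1-ps was the second highest, with 87 and 92 counts (88.4 ± 1.79 CPM), and starts head to head with Cpsf2, which encodes a subunit of the cleavage and polyadenylation specificity factor and held 28 and 29. The libraries hardly differed, and Ndufb1-ps was above Cpsf2 in each. Of its counts, 98.9% were spliced and 142 fell on the leading annotated model of 3 exons and 861 bases. Models over annotated Cpsf2 exons held 79.3% of the counts of Ndufb1-ps. GENCODE M21 lists it as a bidirectional promoter lncRNA, while RefSeq gives its symbol as a synonym of the protein-coding gene Ndufb1, a subunit gene of respiratory complex I. It was the only one of the 74 members found in RefSeq that is protein coding there; 73 were lncRNA and 42 members were not matched.

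The next antisense genes were Gm20659 inside Dusp3, a dual-specificity phosphatase gene, with 54 and 79 counts, and Gm26724 across the start of Lemd2, a nuclear envelope protein gene, with 42 and 51. Gm15283 at Hif1a, the hypoxia-inducible factor, held 35 and 56. All counts of these 3 genes were of the class genomic, which the deposited tables give to mostly unspliced reads that match no annotated transcript. Models over annotated exons of the paired gene held 133 of the 133 counts of Gm20659. They held 93 of 93 for Gm26724 and 85 of 91 for Gm15283. In each of the 3 genes, replicate 2 held more counts than replicate 1, and none of the differences passed the test described below.

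The next high members ranged from wholly unspliced to almost wholly spliced. D830024N08Rik, opposite the fatty acid elongation gene Tecr, held 40 and 38 counts, 80.8% of them spliced, and overlaps Dnajb1 on its own strand. Gm29773, tail to tail with the nuclear pore gene Nup133, held 34 and 41 counts, 96% spliced, and overlaps Gm20388 on its own strand, so that the assignment of reads in these 2 is less certain. Rab10os, tail to tail with the small GTPase gene Rab10, held 31 and 29 counts with 66.7% spliced, against 549 and 495 for Rab10. Gm43126, opposite the end of the cyclin gene Ccnd2, held 22 and 38 counts, all genomic, against 29 and 16 for Ccnd2, so the order within the pair turned between the libraries. Models over annotated exons of the paired gene held 6 of 78 counts for D830024N08Rik and 75 of 75 for Gm29773. They held 28 of 60 for Rab10os and 60 of 60 for Gm43126.

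Among the bidirectional promoter genes, 0610009L18Rik beside Actg1 came after Ndufb1-ps with 21 and 26 counts, against 850 and 831 for Actg1. 2810013P06Rik held 12 and 21 counts against 63 and 36 for Ankrd11. 4632427E13Rik held 17 and 9 against 5 and 5 for Rab30, and was the higher of its pair in both libraries. The last 2 were read almost wholly as annotated models of 1 exon: 32 of 33 counts for 2810013P06Rik and 25 of 26 for 4632427E13Rik were of the class Known. On their own strands, 0610009L18Rik overlaps Fscn2 and 2810013P06Rik overlaps Gm20388, both protein coding, so the assignment of their reads is also less certain. Other annotated genes held 0 and 2 counts over 0610009L18Rik and 0 and 0 over 2810013P06Rik. Gm48226, whose first bases overlap those of Gphn, the gephyrin gene, held 10 and 12 counts, all Known and unspliced, against 30 and 40 for Gphn. Gm9776 held 8 and 5 counts beside Ap3b1 (25 and 13), all Known and unspliced. 2810001G20Rik, which is divergent in position but of the type antisense, held 5 and 8 counts, 92.3% of them spliced, beside Cox10 (65 and 50).

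**Figure D1:**
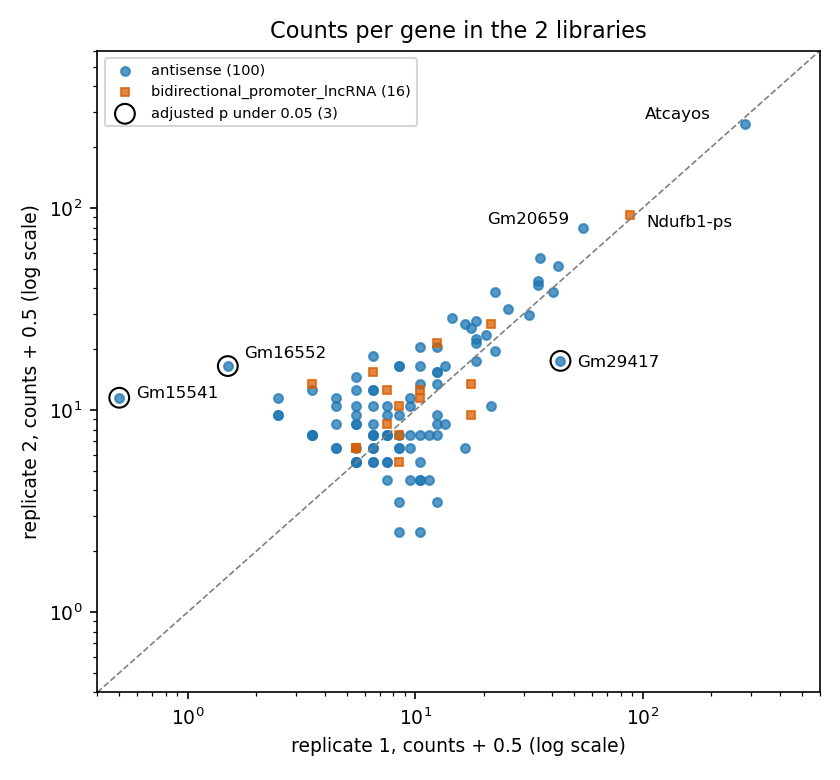
Counts of each of the 116 genes in replicate 1 (x axis) and replicate 2 (y axis), with 0.5 added and on log scales; circles are antisense genes, squares are bidirectional promoter genes, the dashed line marks equal counts and open rings mark the 3 genes with an adjusted p under 0.05. Atcayos (280 and 261 counts) and Ndufb1-ps (87 and 92) lie at the top near the line, and most genes crowd near the minimum of 10 counts in sum.

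The 2 types differed in the classes of their reads. Genomic reads made up 51.5 ± 0.959% of the counts of antisense members and 14.1 ± 0.306% of those of bidirectional members. Among lincRNA genes (intergenic lncRNAs) with at least 10 counts, 79 in number, the share was 9.59 ± 1.67%, and among 10560 protein-coding genes it was 2.76 ± 0.185%. The values of both libraries of antisense members lay above those of every other set. Spliced models held 42.6 ± 3.38% of antisense and 61.8 ± 0.395% of bidirectional member counts, 84.2 ± 0.624% of lincRNA counts and 95 ± 0.416% of protein-coding counts. The bidirectional shares rest in large part on Ndufb1-ps, which had 0 genomic counts. It held 87 of the 231 bidirectional counts in replicate 1 and 92 of 266 in replicate 2. Of the spliced bidirectional counts it held 86 of 142 and 91 of 165. Taken gene by gene, the median spliced share was 5.88% in antisense and 43.5% in bidirectional members. Annotated models (Known) held 31.8% and 77.3% of the counts of the 2 types. With 2 libraries these are ranges of values without a test.

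Counted gene by gene, 50 of the 116 members had no spliced read, against 18 of 79 lincRNA and 213 of 10560 protein-coding genes. All counts were genomic in 42 members, each of them an antisense gene, and 56 members were over 50% genomic. At the other end, 9 members were spliced in all of their counts, among them Snhg9 (18 and 27 counts), a small nucleolar RNA host gene read as 1 annotated model of 2 exons and 183 bases inside the ribosomal protein gene Rps2 (140 and 168). Gm17251 (8 and 7) at the start of Rab11b (277 and 343), 1600020E01Rik (8 and 16) at Pcbp1 (278 and 320) and A730056A06Rik (8 and 9) at Rgma (70 and 64) were also spliced throughout.

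**Figure D2:**
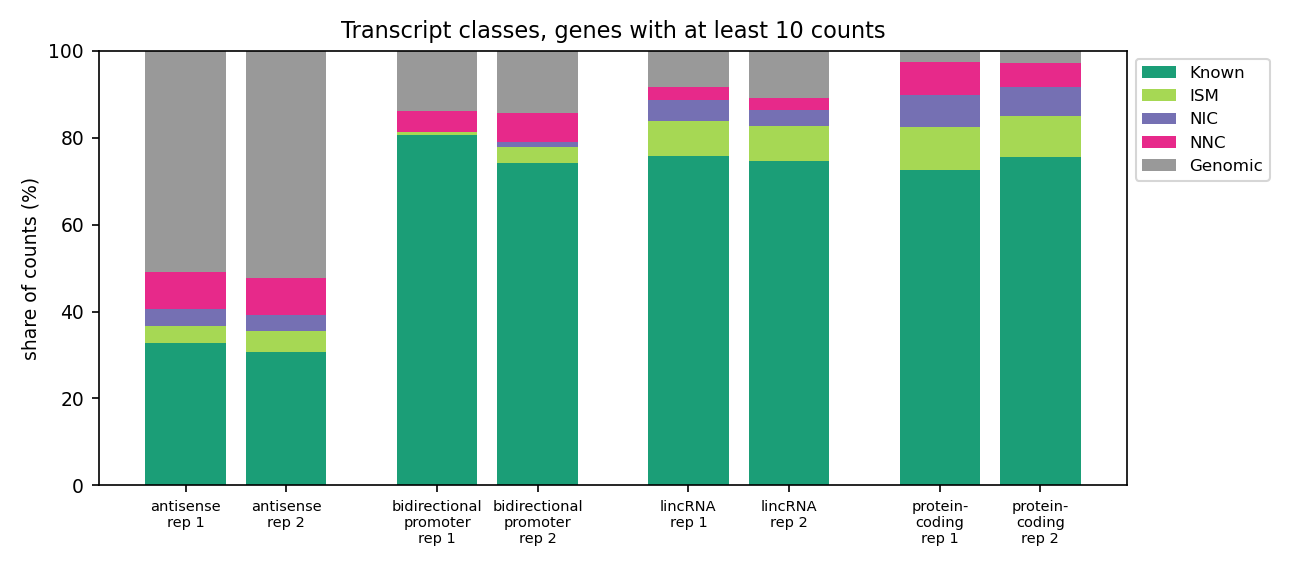
Share of counts (%) in each transcript class, per library, for antisense members, bidirectional promoter members, lincRNA genes and protein-coding genes with at least 10 counts; Known is an annotated transcript, ISM a part of one, NIC a recombination of annotated splice sites, NNC a model with an unannotated splice site and Genomic an unspliced or intron-holding read. Genomic reads (grey) make up 51.5% of antisense member counts in the mean of both libraries and under 15% in the other sets.

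Both presence and splicing differed between arrangements on the paired gene, in shares that pool the 2 gene types and were not tested. Head to head genes, which cross the start of the paired gene, supplied 43 members of 596 annotated genes (7.21%). Genes that span the whole paired gene supplied 7 of 98 (7.14%). Gm15283 covers all of Hif1a but was classed as head to head, as both spans end at position 73946915. Its start lies 45540 bases from that of Hif1a. Tail to tail genes, overlapping at their ends, supplied 20 of 380 (5.26%), divergent genes without overlap 14 of 457 (3.06%), and genes lying inside the paired gene 32 of 1464 (2.19%). None of the 154 convergent genes without overlap reached 10 counts. The paired span was overlapped by 102 of the 116 members, and annotated exons by 78. The 78 are not all among the 102. At AC165962.1 (189 bases) and Zfp335os (234 bases), among others, annotated exons of the pair overlapped though the spans did not. Annotated spans and exons thus do not match at every gene, and arrangement, gap and the words without overlap refer to the spans. Of the 57 head to head or divergent members, 27 had annotated starts within 1000 bases of the paired gene's start. Among the 14 divergent members the gap between spans ran from 16 to 16172 bases, with a median of 117, and was under 200 in 10. The largest was that of Gm26782 and Tep1, whose annotated exons still overlapped by 144 bases. Of the 14 counts of Gm26782, 12 lay on models over annotated Tep1 exons. AC165962.1 (gap 90) and Zfp335os (gap 2957) are further cases, so a gap does not always separate the exons of a pair.

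Members inside their paired gene were mostly unspliced: 17.1% of their 732 counts were spliced, 80.3% were genomic, and 20 of the 32 had no spliced read. The spanning members had 76.9% spliced counts, and 36.8% of 152 without Atcayos; the median over the 7 genes was 47.6%. Divergent members had 47.1% spliced and 18.6% genomic counts, with a median of 60% per gene. Head to head members had 44.1% spliced and 44.6% genomic counts, and tail to tail members 44% and 53.4%. Over all members, 1736 counts (50%) lay on models that overlap annotated exons of the paired gene, in 92 of the 116 genes. How the strand of a read was set is not given in the sources used here, and the part of paired gene RNA placed on the wrong strand was not tested.

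**Figure D3:**
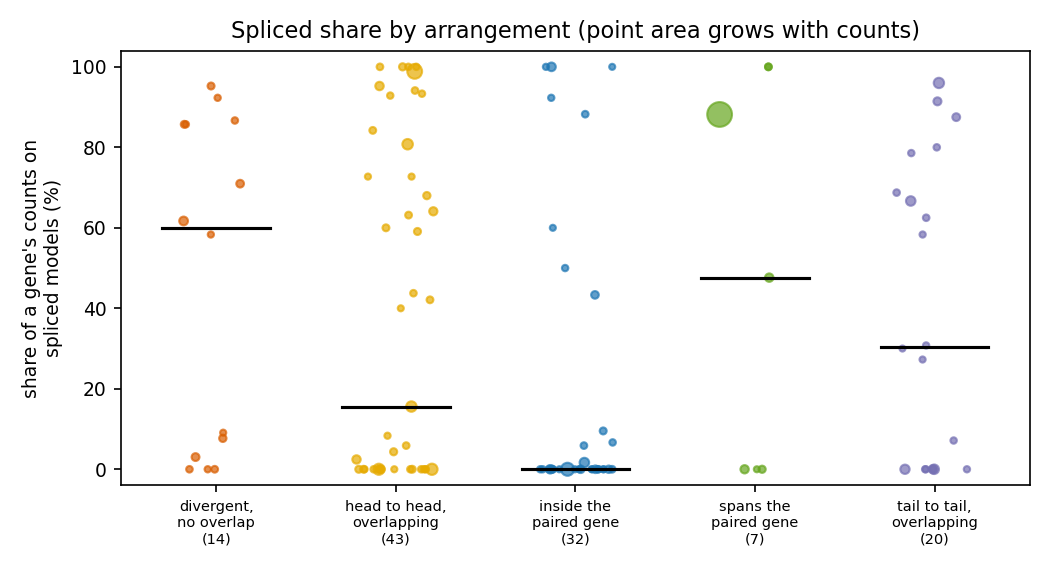
Share of each gene's counts on spliced models (%) for the 116 genes, grouped by their arrangement on the paired coding gene, with the number of genes in brackets; point area grows with counts and the bar is the median over genes. Genes inside the paired gene have a median of 0%, and divergent genes without overlap a median of 60%.

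Most members were lower than the coding gene they were paired with. The median of the paired genes was 31.4 CPM, against 8.11 CPM for the members, and the median member stood at 29.9% of its paired gene in counts (log2 ratio -1.66, quartiles -3.08 and -0.23, prior count 0.5). By summed counts, 23 members (19.8%) exceeded the paired gene, 1 equalled it (2810402E24Rik and Usp54, 12 each), 71 stood lower but at 10% of it or more, and 21 stood below 10%. Taken library by library over all 116 members, 19 were above the paired gene in both libraries and 14 in replicate 2 only. Not all of these 14 exceeded it by summed counts. Across the 116 pairs, levels of member and paired gene had a Pearson r of 0.117 on the log2 scale and a Spearman rho of 0.0759. The points share libraries, and the minimum of 10 counts removes low members, so this describes the pairs above it only.

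In the pairs with the largest ratios the coding gene held at most 5 counts in sum. 9330151L19Rik held 17 and 13 counts inside Gm49384, a gene with 1 and 0. Hoxd3os1 held 12 and 8 counts across the start of the homeobox gene Hoxd3 (0 and 1), with 60% spliced. Gm16008, which spans the TNF receptor family gene Tnfrsf18 (0 and 1), held 11 and 7 counts, all spliced. Gm16124 (3 and 7) lay opposite Rab39 (1 and 0), Gm15494 (7 and 7) opposite Eps8l1 (1 and 1), and Hectd2os (12 and 20, 87.5% spliced) opposite the ubiquitin ligase gene Hectd2 (1 and 4). G730003C15Rik held 6 and 6 counts opposite Mpp4, the only paired gene without a count. Of all members, 15 overlap more than 1 opposite coding gene, among them 9330151L19Rik and Hoxd3os1 (3 each) and Gm16124 (2), so these ratios depend on which gene is taken as the pair. By nearest start site, 85 of the 116 pairs were the same. In all 7 pairs the lncRNA was above the coding gene in both libraries, and each rests on at most 32 counts.

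At the low end, 3 members held under 1% of the paired gene's counts. A930016O22Rik, tail to tail with the muscle creatine kinase gene Ckm, held 9 and 4 counts against 23582 and 28379. All 13 of its counts were genomic and lay over annotated Ckm exons. Gm11175 held 5 and 9 counts inside Jund (941 and 1006), a transcription factor gene of the AP-1 family, and all were of the class Known. Gm16144 held 4 and 6 genomic counts inside the annexin gene Anxa2 (509 and 672). The difference within these 3 pairs was larger than that between the libraries in every case.

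**Figure D4:**
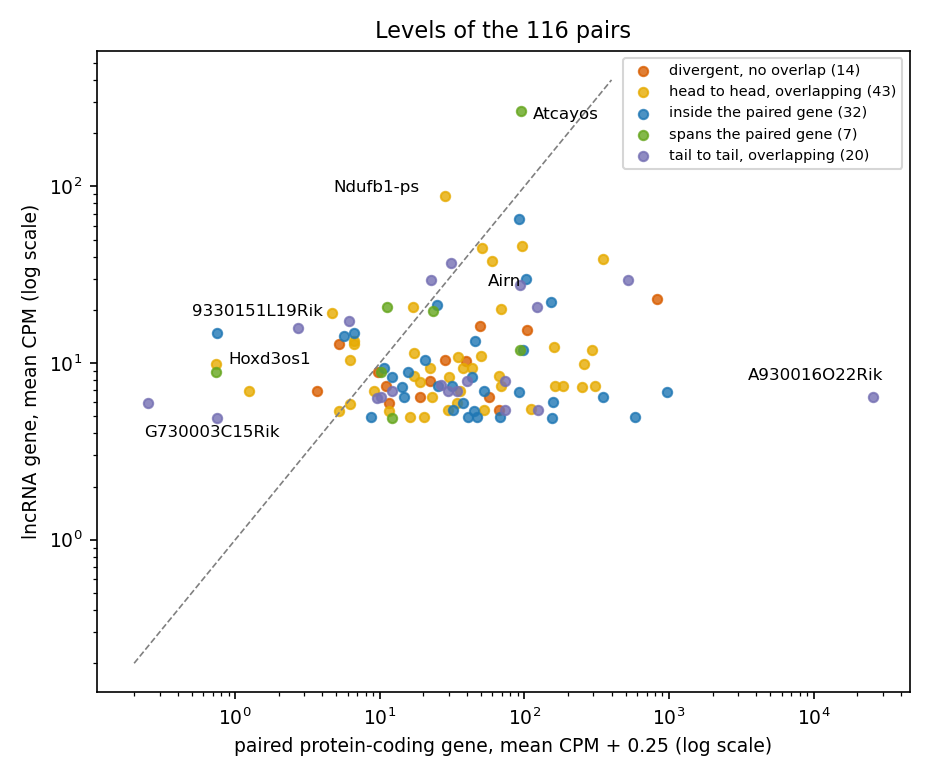
Mean CPM over both libraries of each lncRNA gene (y axis) against that of its paired protein-coding gene with 0.25 CPM added (x axis), on log scales, coloured by arrangement; the dashed line marks equal values. The 23 genes with more summed counts than the paired gene lie above or on the line, led by Atcayos at 267 CPM, and A930016O22Rik lies farthest to the right, opposite Ckm.

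Members were more frequent opposite coding genes that were themselves expressed. Opposite paired genes without counts, 1 of 549 annotated lncRNA genes reached 10 counts (0.182%, exact 95% interval 0.00461 to 1.01%). The share was 1.56% (0.509 to 3.61%) for paired genes above 0 and below 1 CPM, and 2.29% (1.36 to 3.6%) from 1 to below 10 CPM. From 10 to below 100 CPM it was 5.6% (70 of 1250, 4.39 to 7.02%), and from 100 to below 1000 CPM it was 8.9% (21 of 236, 5.59 to 13.3%). The interval for 10 to 100 CPM lay above those of the 3 lower classes, and it overlapped that for 100 to 1000 CPM. At 1000 CPM or more, only 9 lncRNA genes were annotated, and A930016O22Rik was the 1 member. The intervals cover counting error only, and the lncRNA genes share libraries and in part paired genes.

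**Figure D5:**
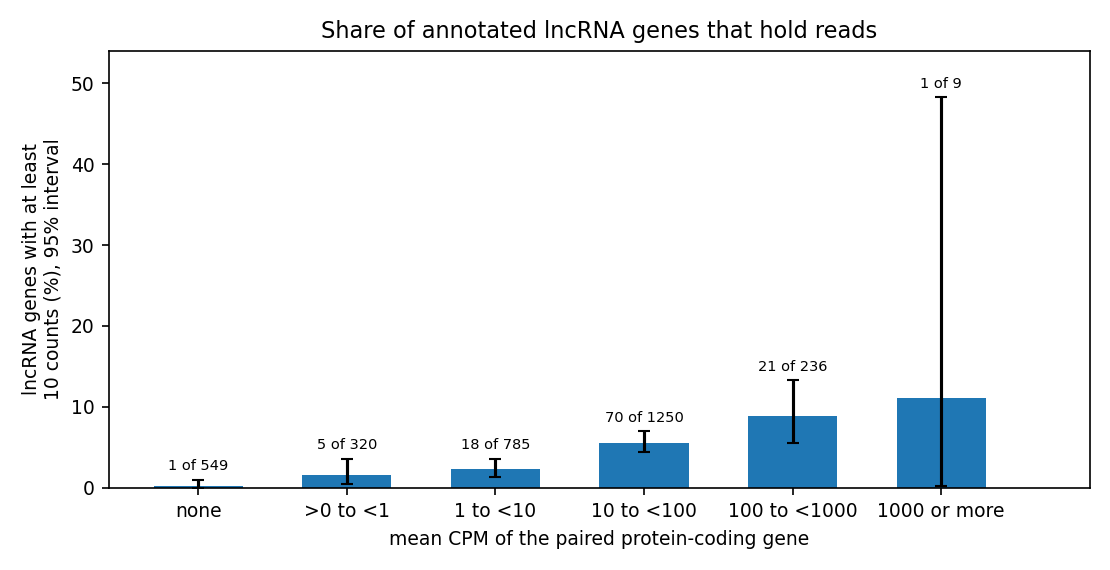
Share of annotated antisense and bidirectional promoter lncRNA genes with at least 10 counts (%), by the mean CPM of the paired protein-coding gene; whiskers are exact 95% binomial intervals and the numbers above them give genes reaching 10 counts of genes annotated. The share is 0.182% where the paired gene has no counts and 8.9% at 100 to below 1000 CPM.

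Over all 3149 annotated genes of the types, 3.68% were members, and the lists below are to be read beside that share. Opposite the contractile, Z-disc and calcium handling genes of the list, 20 lncRNA genes were annotated beside 17 of them: 2 were members, 6 held 1 to 9 counts and 12 held none. Gm28376 lies tail to tail with the junctophilin gene Jph1 (121 and 66), overlaps 125857 bases of its span and held 25 and 31 counts. Of these 56 counts, 10 lay on models over annotated Jph1 exons. Gm13938 inside the titin gene Ttn (158 and 160) held 10 and 2. Both lncRNA genes were wholly genomic. Below the minimum stood Myhas, the antisense RNA of the fast myosin cluster, with 4 and 2 counts inside Myh4 (2260 and 769), and Mhrt, the myosin heavy chain antisense RNA known from heart, with 1 and 1 opposite Myh7 (901 and 769). Gm15179 held 2 and 2 counts opposite the desmin gene Des (5100 and 4107), and Gm13601 held 1 and 5 inside Xirp2 (25 and 18).

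Of 10 lncRNA genes beside 9 myogenic regulators and growth genes, 1 was a member: 2310014F06Rik, head to head with the Hippo pathway transcription factor gene Tead1 (25 and 13), with 3 and 13 counts. Mir133a-1hg, host of the muscle microRNA genes Mir1a-2 and Mir133a-1, lies on the opposite strand of the ubiquitin ligase gene Mib1 (43 and 32). It held 7 and 5 counts, all of them spliced and 8 of the 12 on models with an unannotated splice site. Igf1os opposite the growth factor gene Igf1 (113 and 135) held 0 and 1 counts, and 1700113A16Rik opposite Mef2d (184 and 147) held 3 and 3.

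At imprinted loci, 2 of 10 annotated lncRNA genes were members. Airn, the paternally expressed RNA that silences Igf2r in cis, held 34 and 43 counts (38 ± 5.55 CPM) against 56 and 64 for Igf2r. Its counts were 59 genomic of 77, and 3 and 9 of them were spliced. Kcnq1ot1, the antisense RNA of the Kcnq1 imprinting domain, held 3 and 12 counts against 17 and 11 for Kcnq1, so the order within the pair turned between the libraries. All were assigned to its annotated unspliced model. Nespas held 3 and 2 counts opposite Gnas (2475 and 2537). Parental alleles were not analysed here.

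Of 13 lncRNA genes beside Hox and limb identity genes, Hoxd3os1 was the 1 member, 5 held 1 to 9 counts and 7 held none. Tbx3os1 held 0 and 7 counts opposite Tbx3 (3 and 11). Opposite RNA processing and chromatin genes, 2 of 17 were members, AC061963.1 (12 and 15) at the histone methyltransferase gene Kmt2a (5 and 8) and Gm44686 (10 and 16) at the chromatin remodeller gene Chd2 (7 and 6). Both ran head to head with the coding gene, held no spliced read and were above it in both libraries. Of 25 lncRNAs of these types on a list of known ones, 6 were members, 7 held 1 to 9 counts and 12 held none. Beside Airn, Kcnq1ot1, Hoxd3os1 and Mir133a-1hg these were Brip1os, spanning Ints2 (13 and 9), with 16 and 26 counts, and Tug1, which shares its first bases with Morc2a (29 and 15), with 9 and 10.

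The libraries were compared gene by gene with a two-sided Fisher's exact test, with Benjamini-Hochberg adjustment over 11027 genes. This test covers counting error and compares 2 libraries, not conditions. Of all genes, 9.74% had an adjusted p under 0.05, with 5.25% higher and 4.49% lower in replicate 2. Of the members, 3 of 116 did (2.59%), 2 higher and 1 lower, and 14 had an unadjusted p under 0.05. Among all genes with 10 to 14 counts 2.37% were called, so the members' share is near that of other genes of low count. The median log2 ratio of replicate 2 over replicate 1 was 0.20 over the members and -0.04 over all genes tested, and 70 members were higher and 46 lower. Member levels in the 2 libraries had a Pearson r of 0.634 and a Spearman rho of 0.485 over 116 genes, and both libraries entered the choice of members.

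Gm29417, inside the zinc finger gene Cxxc5 (116 and 90), held 43 and 17 counts and was 2.60-fold lower in replicate 2 (Fisher's exact test, adjusted p = 0.0111). Gm15541, inside the periaxin gene Prx, held 0 and 11 counts and was at least 3.57-fold higher in replicate 2, with the floor of 3 counts for replicate 1 (adjusted p = 0.0150). Prx, which encodes a myelin protein of Schwann cells, held 36 and 55 counts (adjusted p = 0.298), while the 5 Schwann cell markers summed to 1449 and 3479 CPM. The part of Schwann cell content in the counts of Gm15541 was not tested. Gm16552, inside the ataxin gene Atxn2 (48 and 39), held 1 and 16 counts, a ratio of 15.6 with a 95% counting interval of 1.27 to 9.35 on the log2 scale (adjusted p = 0.00559). An unannotated locus on the same strand and span held 14 counts in replicate 1, and with it the values were 15 and 16 (unadjusted p = 1). The difference thus depends on the identifiers counted. Whether the reads of the 2 libraries lie at the same place in the span was not tested. All 3 genes were nearly or wholly genomic in class.

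The identifier under which a read was counted touched further members. On the same strand, 20 members overlap another annotated gene, 5 of them a protein-coding one, and 14 members had counts on unannotated loci within their span, 49 and 52 in the libraries. Counted under any identifier, Gm29417 and Gm15541 kept their calls, Gm16552 lost its call, and Tmem147os was called at 7 and 36 counts. The excess of Tmem147os came from 24 counts of Sbsn, the suprabasin gene of epidermis, which lies in its span, while Tmem147os itself held 6 and 12 counts. For the paired genes, 13 of the 107 with at least 10 counts were called (12.1%). Library ratios of members and paired genes had a Pearson r of 0.221 and a Spearman rho of 0.196 over these 107 pairs, which share their libraries and totals.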

How the data were processed

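Long-read RNA sequencing of gastrocnemius gave 1 transcript table and 1 transcript model file per library. The deposited values are raw counts of reads per transcript model, with gene and transcript class in TALON format and models on mm10 with GENCODE M21 identifiers, per the file headers and the readme beside them. The other columns that the authors deposited are identifiers, classes and exon positions. The aligner is not given in the sources used here, nor are the platform and tool versions.

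All classes of an annotated mouse gene were added up, and the sums were scaled to CPM by the library's annotated gene counts. Counts on unannotated loci and spike-ins stayed out. Spliced means 2 or more exons in the model. Gene types and coordinates came from GENCODE M21. Arrangement used annotated spans, and exon overlap used merged annotated exons. Replicate 1 held 1066347 and replicate 2 held 1100253 counts in all; a count of 0 allows 3 counts at the 95% level, and intervals cover counting error only.

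Genes with at least 10 counts in sum were compared between libraries by Fisher's exact test (scipy 1.17.1; checked on simulated data), with Benjamini-Hochberg adjustment at 0.05 and a prior count of 0.5 for ratios. With 1 group there was no test between groups. Alternatives were TMM and an exact test with a preset biological coefficient of variation (BCV) of 0.2 in edgeR 4.0.16, size factors from DESeq2 1.42.0, other minimums, narrower class sets, other pairing rules and each replicate alone. Counting under any identifier and leaving out members over 50% genomic were chosen after seeing the data.

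The members and lists were chosen with earlier results of these data known. Genes were named by rule: the 10 highest antisense and 6 highest bidirectional members, called members, the 6 largest ratios to the paired gene, members opposite a gene without counts or one on a list, listed lncRNAs with reads, and 3 genes on each side of the minimum. Other genes named, such as Snhg9, A930016O22Rik, Gm11175, Gm16144, Gm17251, 1600020E01Rik, A730056A06Rik, Gm9776, 2810001G20Rik, Tmem147os, Myhas and Mhrt, were chosen after their values were seen.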

Additional observations from a re-analysis of the deposited data

How the results depend on the processing

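The number of members depends on what counts as a read of the gene. In place of 116, there were 45 with a minimum of 20 counts, 58 without the genomic class and 54 with Known, NIC and NNC classes only; a minimum of 5 in each library left 92. Without the genomic class the members' share of the libraries fell to 0.0922%, and the spliced share of their counts was 82.8%. Under Known, NIC and NNC classes only, the median log2 ratio of member to paired gene was -2.74. Of the 33 named members, 20 moved by over 1.5-fold without the genomic class, and 11 of these went to 0 counts.

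The 3 calls between the libraries stood with TMM and with DESeq2 size factors. There were 0 calls with edgeR's exact test at a preset BCV of 0.2 (5 members with an unadjusted p under 0.05; 56 of all genes called), 0 among the 54 members tested under Known, NIC and NNC classes only (2 with an unadjusted p under 0.05) and 0 among the 60 members left without those over 50% genomic, since all 3 called genes are genomic in class. The number of members above their paired gene stayed between 22 and 30 under the class and pairing alternatives, and was 33 without replicate 1 and 19 without replicate 2. No paired analysis was possible because the series has 1 group. Depth is a limit: the median member held 16.5 counts.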

Other observations

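Other members with more reads than the coding gene were chosen after their values were seen. E130307A14Rik, tail to tail with the signalling adaptor gene Traf3ip2 (3 and 9 counts in replicates 1 and 2), held 18 and 17 counts, 91.4% of them spliced. Sp3os held 18 and 21 counts against 4 and 5 for its paired gene Gm11084, with 64.1% spliced. Gm15337 inside Arhgap26 (5 and 6) held 13 and 16, and Gm15261 inside Arhgap6 (7 and 6) held 10 and 20; both were wholly genomic in class. Zbtb11os1 held 13 and 8 counts at the start of the zinc finger gene Zbtb11 (9 and 3), on annotated unspliced reads. Gm13375 held 17 and 25 counts against 19 and 15 for Arhgap21, so the order within that pair turned between the libraries.

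The choice of the next members was likewise made with their values known. Gm15816, inside the ankyrin gene Ank1 (334 and 370), held 6 and 7 counts, 92.3% of them spliced. The annotated span of A630012P03Rik crosses the start of the glypican gene Gpc3 (214 and 295), with annotated starts 43626 bases apart. It held 4 and 11 genomic counts, 0 of them on models over annotated Gpc3 exons. 9330175M20Rik held 9 and 11 genomic counts at the caveolar gene Cavin2 (282 and 238). Gt(ROSA)26Sor, the lncRNA gene of the Rosa26 locus used for transgene insertion, held 7 and 9 counts with 68.8% spliced, against 41 and 39 for Thumpd3 at its end. Foxo6os held 10 and 4 counts, 92.9% spliced, at the start of the forkhead gene Foxo6 (44 and 28). None of the members in this paragraph passed the comparison of the libraries (Fisher's exact test, threshold 0.05 after adjustment).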
